A study of Mus musculus with 23 samples.

Results

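Of 23 RNA-seq libraries, 4 tumor libraries were set against 4 libraries of quiescent B cells. The 4 tumors were chosen by their immunoglobulin share: among 14 from IL6Myc transgenic mice, they were those in which immunoglobulin genes took less of all counts than in any quiescent library. Mice 1610, 1612 and 1615 gave a spleen tumor and mouse 1611 a mesenteric lymph node tumor, so each came from a different mouse. The immunoglobulin share was 1.03% in spleen tumor 1615, 1.13% in spleen tumor 1610, 1.65% in spleen tumor 1612 and 2.01% in lymph node tumor 1611. The quiescent libraries held 2.23%, 2.35%, 2.56% and 2.79%. The highest chosen tumor and the lowest quiescent library therefore lay close together, while the nearest tumor outside the rule, the lymph node tumor of mouse 1609, stood at 3.84%. The other 10 tumors ranged from 3.84% to 26.3%. The share chose the tumors and is a description only.

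Tumor samples carry the genotype IL6Myc and the cell type label Malignant Plasma Cell. Quiescent and activated B cells were splenic and came from WT Balb/c mice, and the activated cells had received 1 µg/ml LPS (lipopolysaccharide, a bacterial cell wall component that drives B cells into division) for 16 h. Every sample, controls included, had been enriched for B cells by removing other cells with magnetic beads. The labels give no ages and do not name the promoters that drive the transgenes. The labels do not say whether the control libraries came from separate animals, so the p-values below measure the spread between these libraries, which may be technical for the controls. Lymph node tumor 1611 has no control of its own tissue. In these bulk samples, fewer cells of a type and less RNA per cell cannot be told apart.

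A resting B cell carries PAX5, the transcription factor that holds B cell identity, together with surface receptors that sense antigen, complement and helper T cells. On stimulation it may divide, enter a germinal center, where its antibody genes are mutated and switched, or become a plasma cell, which shuts down PAX5 and turns over to secretion under XBP1 and PRDM1. Myeloma is a cancer of plasma cells, and MYC, a transcription factor of growth and division genes, is a common driver of it. Interleukin 6 is a cytokine that supports plasma cell survival through JAK kinases and STAT3.

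The chosen tumors kept B cell genes at a high level and did not show the plasma cell genes of the other tumors. These genes follow the share that chose the tumors, so their values are given with no test. PAX5 stood at 1150 CPM (counts relative to the library total) in spleen tumor 1610, 1030 in spleen tumor 1612, 992 in spleen tumor 1615 and 963 in lymph node tumor 1611. In the quiescent libraries it was 1480, 1630, 1560 and 1570 CPM. All 4 tumors lay below all 4 quiescent libraries, at 0.66 of the quiescent mean, whereas the other tumors ranged from 7.27 to 924 CPM with a median of 165. CD79A, a signaling chain of the B cell receptor, was 1460 to 1810 CPM against 2510 to 2640 in quiescent cells and a median of 253 in the other tumors. MS4A1, which encodes CD20, was 1500 to 1880 CPM against 2120 to 2220. Of 28 B cell identity genes tested, 22 lay below every quiescent library and 0 above, with a median log2 difference of -0.52. Over all genes tested, 23.3% lay below every quiescent library and 26.0% above, and the median log2 difference was -0.0065. The widest gaps were in CR2, the complement receptor of mature B cells, at 0.347 of the quiescent mean, FCER2, the low-affinity IgE receptor CD23, at 0.423, and CD40, the receptor for T cell help, at 0.502.

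Plasma cell genes were mixed against the quiescent level, and the defining ones named here were not above it in all tumors. XBP1 was 248 CPM in lymph node tumor 1611, 221 in spleen tumor 1612, 185 in spleen tumor 1615 and 153 in spleen tumor 1610, which overlapped the quiescent range of 175 to 199. In the other tumors it was 488 to 4880 CPM. PRDM1 was 5.87 to 18.2 CPM against 8.03 to 11.9 in quiescent cells, and the lowest of the other tumors held 27.7. JCHAIN, which joins polymeric antibodies, was 261 to 628 CPM in the chosen tumors, below all quiescent libraries at 1180 to 1560 and below all other tumors at 1580 to 14200. TNFRSF17, the survival receptor BCMA, was under 1 CPM in each chosen tumor and 1.41 to 2.86 in quiescent cells. Of 19 plasma cell genes tested, 3 lay above and 4 below every quiescent library, with a median log2 difference of 0.17. One of the 3 was EAF2, at 30.0 to 91.5 CPM against 5.65 to 6.75. The 24 genes of endoplasmic reticulum folding and stress gave 4 above and 2 below, with a median log2 difference of 0.04. HSPA5, the chaperone BiP, was 652 to 961 CPM against 673 to 763 in quiescent cells and 1260 to 9910 in the other tumors. These defining markers do not match the label Malignant Plasma Cell in the 4 libraries. They follow the immunoglobulin share that chose the tumors, so the mismatch describes the choice and does not test the label.

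**Figure D1:**
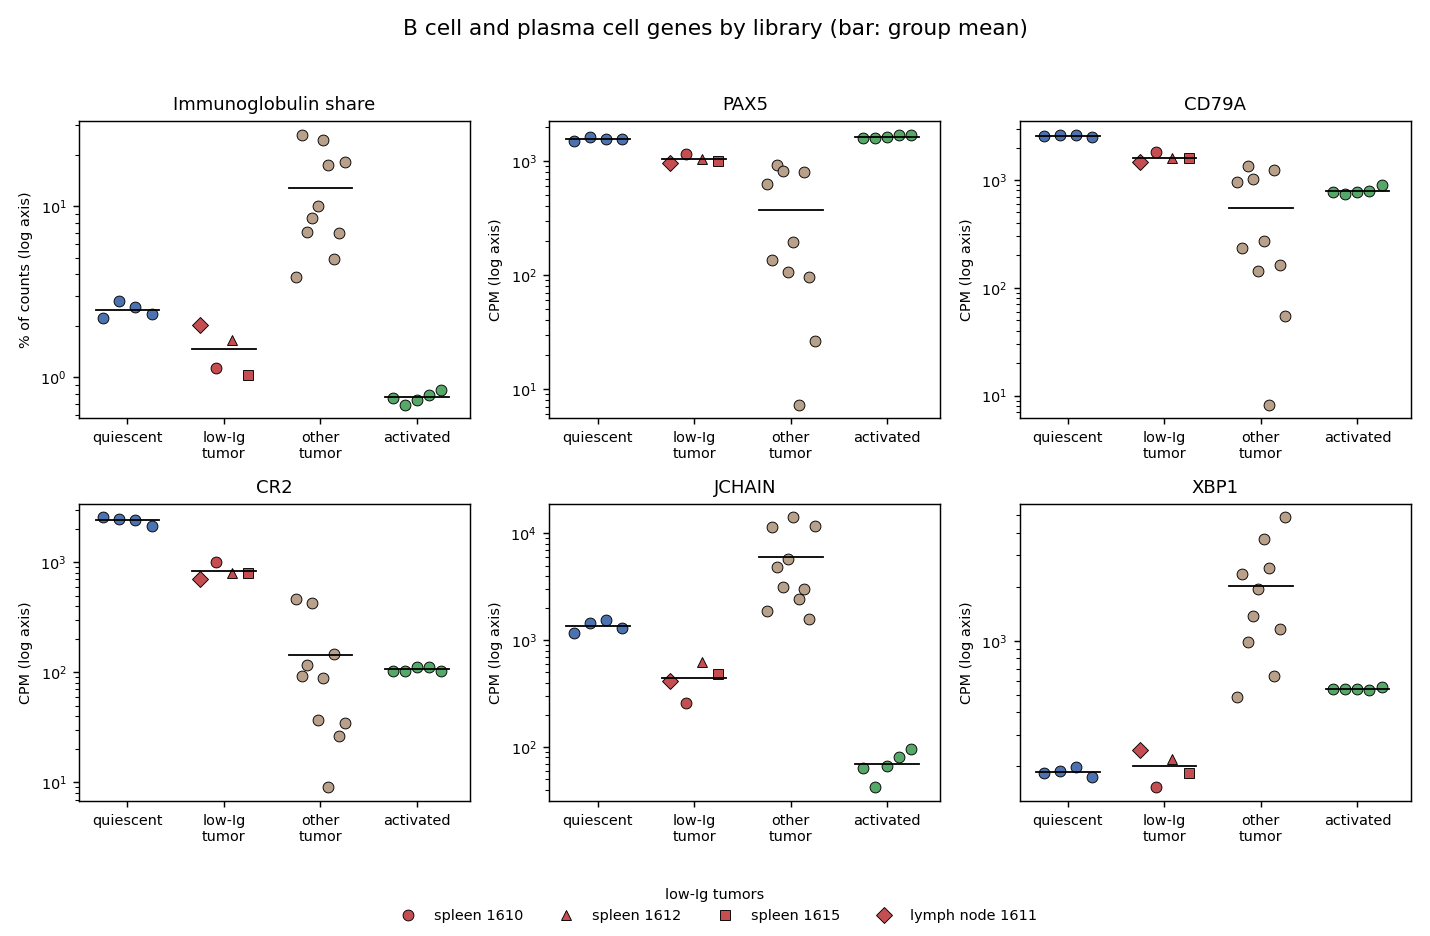
Immunoglobulin share (% of counts) and CPM of 5 genes on log axes, 1 point per library, in 4 quiescent libraries, 4 chosen tumors, 10 other tumors and 5 activated libraries, with bars at group means. The chosen tumors sit below the quiescent libraries for PAX5, CD79A, CR2 and JCHAIN and overlap them for XBP1, where every other tumor lies higher.

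In 3 of the 4 mice the other organ also gave a tumor, and it lay on the other side of the rule. PAX5 was 135 CPM in the lymph node tumor of mouse 1610, 106 in that of mouse 1615 and 7.27 in the spleen tumor of mouse 1611. XBP1 in the same partner tumors was 2360, 1940 and 2560 CPM. The partner tumors thus held less PAX5 and more XBP1 than the chosen tumor of the same mouse, in 3 of 3 mice. MYC was likewise 1870, 1290 and 1410 CPM in the partner tumors, each above the chosen tumor of its mouse. These pairs were split by a measured value and were not tested.

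The chosen tumors held 17492282 to 21897188 estimated counts and the quiescent libraries 15529618 to 24226060. The quiescent libraries were nearly alike, with pairwise correlations of log2 CPM across genes of 0.987 to 0.994, while those among the chosen tumors were 0.933 to 0.979. Lymph node tumor 1611 was the farthest from the other tumors. Genes were tested with edgeR at an adjusted p under 0.05, with immunoglobulin and Y-linked genes left out. Of 10346 genes, 5436 passed (52.5%), 2691 higher (26.0%) and 2745 lower (26.5%) in the tumors. The share of higher genes among those that passed was 49.5%. It was 38.5% with quantile normalization, which moved the median of all genes to -0.11, and 58.3% with upper quartile factors (median 0.06). A change larger than 2-fold was called for 530 genes (5.12%). Since about every other gene passed, a list is read below against these shares. A pair of other settings is given beside the list counts. One takes all 8 tumor mice in place of the chosen 4, with no choice by immunoglobulin. The other fits all libraries together, so that the estimate of spread is shared with the other tumors, and there 2490 genes passed. Some list members were under 1 CPM in each control library and were tested only because the tumors were high. Their calls support nothing, and they are subtracted where they occur.

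MYC was higher in every chosen tumor than in any control. It stood at 482 CPM in spleen tumor 1610, 458 in lymph node tumor 1611, 456 in spleen tumor 1612 and 329 in spleen tumor 1615. The quiescent libraries held 63.7 to 78.1 CPM and the activated ones 227 to 244, and no groups overlapped. The log2 change was 2.55 ± 0.12 (SE) against quiescent cells (adjusted p = 2.27e-05) and 0.91 ± 0.10 against activated cells (adjusted p = 4.59e-05). With all libraries in 1 fit the change against activated cells no longer passed (0.88, adjusted p = 0.0573). The other tumors ranged from 442 to 2320 CPM with a median of 1100. Whether transcripts of the Myc and IL6 transgenes count toward these genes is not stated in the labels. Among 11 tested genes of the MYC network, 4 rose and 2 fell. The other rises were MYCL, a MYC paralog, at 2.14, MXD3, a MAX partner found in dividing cells, at 3.27, and MXD4, an antagonist of MYC, at 0.46. The MXD4 call was lost without quiescent replicate 2 or 3 (adjusted p = 0.061 and 0.0594), in the single fit (0.203) and with all 8 mice (log2 0.17, adjusted p = 0.433). MGA and MLXIP fell by 0.51 and 0.45 on the log2 scale, MLXIP not in the single fit (adjusted p = 0.254). MAX, the obligate partner of MYC, was 138 to 188 CPM against 140 to 153 and did not pass (adjusted p = 0.11), though it passed without spleen tumor 1612 (log2 0.32, adjusted p = 0.00418) and with upper quartile or quantile normalization (0.28 and 0.30, adjusted p = 0.0326 and 0.0239).

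Genes of mitosis rose together. Of 39 tested, 38 rose and 0 fell, with a median log2 change of 3.78, and with all 8 mice 39 of 39 rose. MKI67, the antigen Ki-67 of cycling cells, was 702 CPM in spleen tumor 1615, 518 in spleen tumor 1612, 402 in spleen tumor 1610 and 314 in lymph node tumor 1611. Quiescent libraries held 23.7 to 26.5 CPM, so the groups were far apart (log2 4.21 ± 0.25, adjusted p = 4.33e-05). CCNB1, the cyclin of mitotic entry, was 36.8 to 103 CPM against 2.26 to 3.08. BIRC5, the chromosomal passenger survivin, rose by 4.57, CCNA2, cyclin A2, by 4.54 and UBE2C, a ubiquitin enzyme that ends mitosis, by 4.37. CDC20, which activates the same ubiquitin ligase, was 124 CPM in spleen tumor 1615 and 48.0 to 56.0 in the other 3, against 8.50 to 10.3 (log2 2.84 ± 0.32, adjusted p = 0.00022). Spleen tumor 1615 was the highest of the 4 tumors in summed mitosis genes, at 4460 CPM, and lymph node tumor 1611 the lowest at 1810, while quiescent libraries summed to 276 to 320. CENPA, the centromeric histone, was the 1 member that did not pass, at 50.0 to 98.2 CPM against 46.7 to 51.6 (log2 0.45, adjusted p = 0.0787). It passed without lymph node tumor 1611 (log2 0.60, adjusted p = 0.0159) and with DESeq2 (0.47, adjusted p = 0.0348).

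DNA replication genes moved the same way by less. Of 39 tested, 35 rose and 1 fell, with a median log2 change of 1.49, and with all 8 mice 33 rose and 1 fell. MCM10 and CDC6, which load and fire origins, rose by 4.35 and 4.28, and CCNE2, a cyclin of S phase entry, by 4.05. MCM6, a subunit of the replicative helicase, was 315 CPM in spleen tumor 1615, 161 in spleen tumor 1610, 154 in spleen tumor 1612 and 136 in lymph node tumor 1611. It was 31.5 to 36.6 CPM in quiescent cells (log2 2.48 ± 0.26, adjusted p = 0.000182). ORC1, the largest origin recognition subunit, was 7.73 to 15.9 CPM against 0.895 to 2.51 (log2 3.10, adjusted p = 0.000616). POLD1, the catalytic subunit of polymerase delta, fell by 0.66 (138 to 205 CPM against 221 to 297), but not in the single fit (adjusted p = 0.167). CDT1, GINS3 and RFC3 did not pass, at log2 values of -0.10, 0.49 and 0.53, though GINS3 did with RLE or upper quartile factors (0.51 and 0.56, adjusted p = 0.0433 and 0.0347). GINS3 and RFC3 also passed with DESeq2 (0.51 and 0.55, adjusted p = 0.0283 and 0.0382) and without lymph node tumor 1611 (0.60 and 0.66, adjusted p = 0.0237 and 0.0319).

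**Figure D2:**
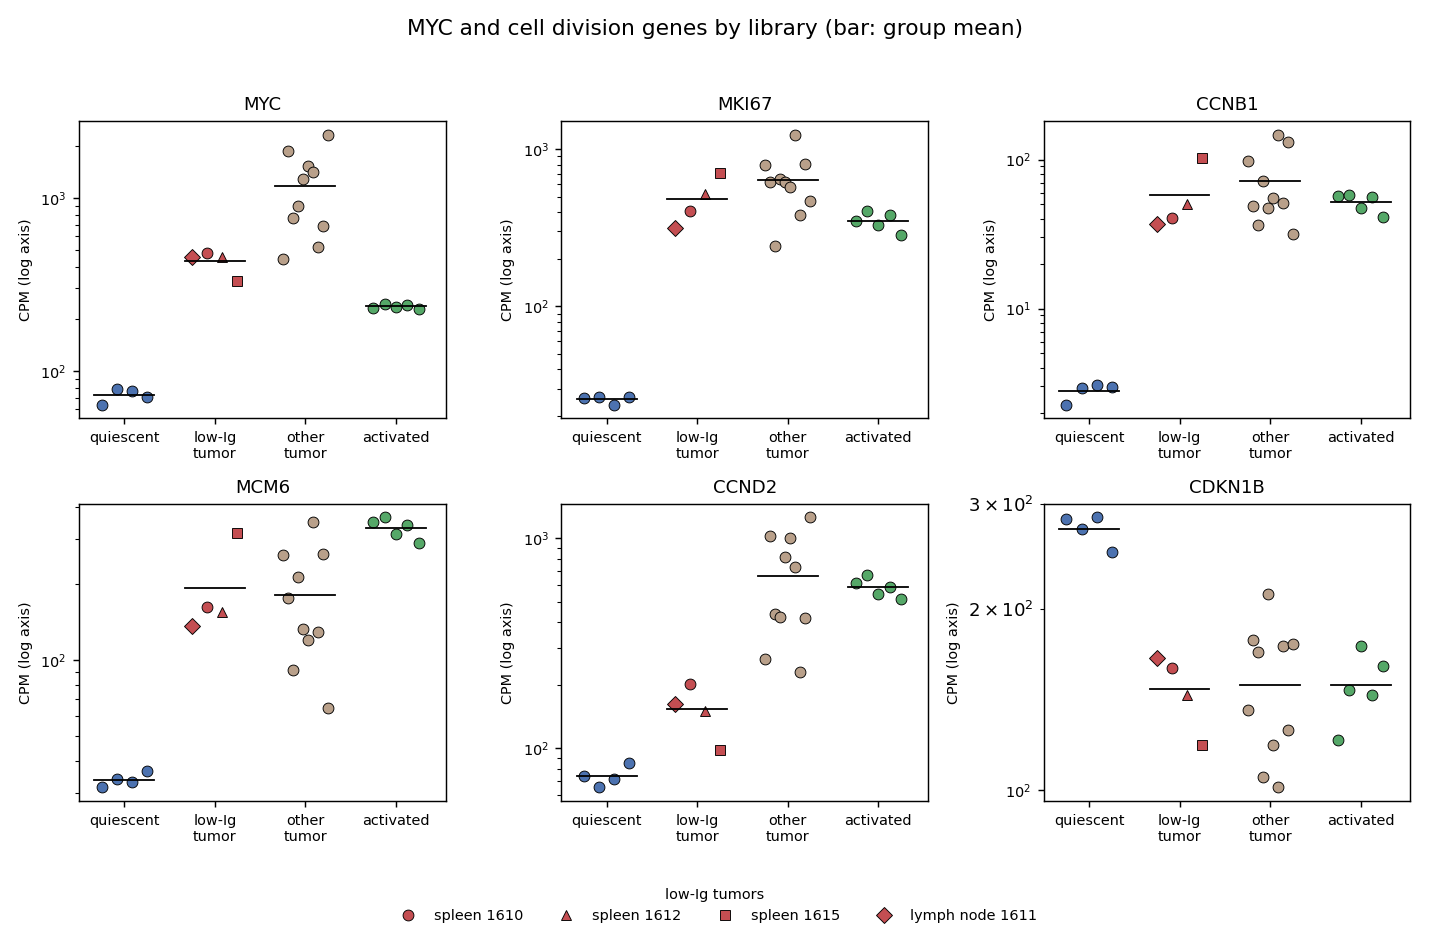
CPM on log axes of MYC, MKI67, CCNB1, MCM6, CCND2 and CDKN1B, 1 point per library in the same 4 groups, with bars at group means. MYC, MKI67, CCNB1, MCM6 and CCND2 lie above the quiescent libraries in all 4 chosen tumors and CDKN1B below them; for MKI67 and CCNB1 the chosen tumors overlap the activated libraries.

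Mitotic genes are known to be held off in resting cells through a short element near their start, TTTGAA, that works with CCAAT boxes, and replication genes through sites of the E2F family, written here as TTTNNCGC. Promoters were read from RefSeq for mouse build GRCm38.p6 (300 bases each, 250 before and 50 after the start, both strands searched, 32851 promoters in all). A promoter was found for 33 of 40 mitosis genes and 32 of 40 replication genes. TTTGAA was in 25 of 35 mitosis promoters (71.4%), 5 of 39 replication promoters (12.8%) and 17.9% of all promoters. In the 250 bases before the start alone it was in 12 of 35 mitosis promoters (34.3%) and 16.0% of all. CCAAT was in 27 of 35 (77.1%), 22 of 39 (56.4%) and 37.4% of all. TTTNNCGC was in 3 of 35 (8.57%), 16 of 39 (41.0%) and 5.17% of all. In the 250 bases before the start it was in 11 of 39 replication promoters (28.2%) and 4.28% of all. CCAAT was thus above the share of all promoters in both lists. A match is a description and not a bound site. The 110 bases before the start are printed for 7 members because they show each motif in a gene whose level is given here, 5′ to 3′ in the direction of the gene, with matches on either strand in capitals. TTTGAA is marked in CDC20 (chr4:118437344-118437453, minus strand), UBE2C (chr2:164769819-164769928, plus) and MKI67 (chr7:135716380-135716489, minus). CCAAT is marked in CCNB1 (chr13:100786487-100786596, minus) and CCNB2 (chr9:70421555-70421664, minus). TTTNNCGC is marked in MCM6 (chr1:128359706-128359815, minus), where 2 of 3 matches overlap, and ORC1 (chr4:108579344-108579453, plus).
CDC20: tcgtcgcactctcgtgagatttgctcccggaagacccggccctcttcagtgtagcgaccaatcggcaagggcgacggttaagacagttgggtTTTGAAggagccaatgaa
UBE2C: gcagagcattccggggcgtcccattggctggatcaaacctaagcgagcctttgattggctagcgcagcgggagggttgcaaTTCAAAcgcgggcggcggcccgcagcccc
MKI67: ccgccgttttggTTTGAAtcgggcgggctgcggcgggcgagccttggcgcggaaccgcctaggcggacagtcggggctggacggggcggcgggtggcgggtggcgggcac
CCNB1: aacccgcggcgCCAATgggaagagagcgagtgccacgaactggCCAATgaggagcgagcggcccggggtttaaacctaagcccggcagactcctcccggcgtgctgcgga
CCNB2: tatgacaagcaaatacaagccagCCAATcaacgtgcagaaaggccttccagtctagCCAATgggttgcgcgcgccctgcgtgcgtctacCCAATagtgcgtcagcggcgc
MCM6: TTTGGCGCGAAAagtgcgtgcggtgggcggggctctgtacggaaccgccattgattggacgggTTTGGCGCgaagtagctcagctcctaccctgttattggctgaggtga
ORC1: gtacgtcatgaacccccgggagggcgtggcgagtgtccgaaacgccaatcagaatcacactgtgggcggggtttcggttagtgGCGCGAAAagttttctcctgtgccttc

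Among 20 cyclin, CDK and CDK inhibitor genes tested, 12 rose and 4 fell, and with all 8 mice 11 rose and 3 fell. The 12 include CDKN2B, which was tested only through the tumors, so 11 remain. CCND2, the D-type cyclin through which stimulated B cells leave rest, was 203 CPM in spleen tumor 1610, 162 in lymph node tumor 1611, 151 in spleen tumor 1612 and 97.9 in spleen tumor 1615, against 65.2 to 85.4 (log2 1.02 ± 0.19, adjusted p = 0.00253, and 0.0757 in the single fit). Spleen tumor 1615, the highest in mitosis genes, was the lowest in CCND2. E2F8, an E2F of S phase, rose by 4.68 and CDKN2C, the CDK inhibitor p18, by 1.36. The falls included CDKN1B, the inhibitor p27, at 119 to 166 CPM against 249 to 285 (log2 -0.92 ± 0.10, adjusted p = 0.000202), and RB1, the retinoblastoma protein, at 83.4 to 135 CPM against 161 to 173 (log2 -0.74 ± 0.13). CDKN1A, the CDK inhibitor p21, was 95.9 CPM in lymph node tumor 1611 and 4.40 to 11.4 in the spleen tumors, against 2.26 to 4.14. It passed at a log2 change of 3.37 (adjusted p = 0.0218). Without lymph node tumor 1611 the change was 1.35 (adjusted p = 0.0174), and without quiescent replicate 1, 3 or 4 the call was lost (adjusted p = 0.0604, 0.0592 and 0.056), as it was with quantile normalization (log2 1.44, adjusted p = 0.164).

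Growth genes rose as well. Of 38 MYC targets and ribosome-making genes, 34 rose and 1 fell, with a median of 0.97, and with all 8 mice 33 rose and 1 fell. NPM1, a nucleolar chaperone, was 1050 to 1470 CPM against 456 to 475 (log2 1.40 ± 0.10, adjusted p = 4.8e-05). BCAT1, an enzyme of branched amino acid metabolism, rose by 3.51, SLC7A5, a leucine transporter, by 1.89 and TFAP4, a MYC-induced transcription factor, by 1.69. SRM, spermidine synthase, was 89.4 to 103 CPM against 27.4 to 37.8 (log2 1.51 ± 0.10). CACGTG, the E-box to which MYC binds, was in 10 of 46 promoters of 33 matched genes of this list (21.7%) and in 7.15% of all promoters. In the 250 bases before the start it was in 8 of 46 (17.4%) and 6.02% of all. It was also in 5 of 39 replication promoters (12.8%). TTTNNCGC was likewise in 10 of 46 promoters of this list (21.7%), against 5.17% of all, so the E-box was not the only motif above the share of all promoters. Of 27 genes of nucleotide and one-carbon synthesis, 23 rose and 1 fell, with a median of 0.98, and with all 8 mice 24 rose. ASNS, asparagine synthetase, rose by 2.98, SHMT1, which feeds folate metabolism, by 2.91 and TYMS, thymidylate synthase, by 2.59, while CTPS2, a CTP synthase, fell by 0.73 (adjusted p = 0.083 in the single fit). UCK2, a uridine kinase, was 88.4 to 117 CPM against 8.09 to 14.5 (log2 3.16 ± 0.19, adjusted p = 4.33e-05).

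Of 19 glycolysis genes, 14 rose and 0 fell, with a median of 1.21, and with all 8 mice 13 rose and 0 fell. Without SLC16A3, tested only through the tumors, 13 rose. With lymph node tumor 1611 left out, 14 of 18 rose and 0 fell, at a lower median of 0.83. SLC16A1, a lactate transporter, rose in each tumor to 44.8 to 67.3 CPM from 6.78 to 10.2 (log2 2.69 ± 0.18, adjusted p = 4.64e-05). LDHA, lactate dehydrogenase A, was 823 CPM in lymph node tumor 1611, 802 in spleen tumor 1615, 556 in spleen tumor 1610 and 440 in spleen tumor 1612, against 204 to 218 (log2 1.61 ± 0.20, adjusted p = 0.000325). HK2, hexokinase 2, was 94.9 CPM in lymph node tumor 1611 and 20.3 to 23.7 in the spleen tumors, against 6.05 to 10.5. Its log2 change was 2.30 (adjusted p = 0.00693), and 1.46 without lymph node tumor 1611 (adjusted p = 0.000488). SLC16A3, a second lactate transporter that macrophages also use, was 139 CPM in lymph node tumor 1611 and at most 3.42 in the spleen tumors.

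Genes that mark germinal center B cells stood far above quiescent cells in all 4 tumors, although BCL6, the germinal center regulator, was lower. S1PR2, the receptor that keeps B cells within the germinal center, was 207 CPM in spleen tumor 1615, 103 in spleen tumor 1610, 87.1 in lymph node tumor 1611 and 49.6 in spleen tumor 1612. Quiescent libraries held 2.96 to 5.94 and activated ones 1.29 to 2.86 (log2 4.58 ± 0.46, adjusted p = 0.000142 against quiescent cells). MYBL1, a transcription factor of dividing germinal center B cells, was 185, 91.8, 63.3 and 39.9 CPM in the same order, against 3.47 to 11.1 (log2 3.58 ± 0.56, adjusted p = 0.00106). RGS13, a regulator of chemokine signaling in these cells, was 114, 41.9, 33.2 and 14.2 CPM in the same order, against 3.08 to 5.59 (log2 3.48 ± 0.60, adjusted p = 0.00173). Without spleen tumor 1615 the RGS13 change was 2.71 (adjusted p = 0.000786). The 3 genes thus ranked the tumors alike, spleen tumor 1615 highest and spleen tumor 1612 lowest, and no tumor overlapped a quiescent library. BCL6 ran the other way, at 90.0 to 181 CPM against 195 to 236 (log2 -0.69 ± 0.18, adjusted p = 0.0128), but in the single fit it did not pass (log2 -0.70, adjusted p = 0.223).

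Other genes of B cell subsets and stages gave a mixed picture. Of 21 tested, 13 rose and 5 fell, with a median of 1.46, and with all 8 mice 13 of 24 rose and 5 fell. ZBTB32, a repressor found in memory and stimulated B cells, was 52.2 to 72.9 CPM in 3 tumors and 15.5 in spleen tumor 1615, against 3.52 to 4.30 (log2 3.75 ± 0.44, adjusted p = 0.000279). The tumor highest in germinal center genes was thus the lowest in ZBTB32. BHLHE41, a regulator known from B-1 cells, likewise was 24.2 CPM in spleen tumor 1615 and 52.2 to 53.7 in the other 3, against 10.2 to 13.9 (log2 1.90 ± 0.25). ITGAX, the integrin CD11c, which marks atypical memory B cells and dendritic cells, was 22.8 to 42.5 CPM against 4.98 to 14.0 (log2 1.84 ± 0.36). FAS, the death receptor carried by germinal center B cells, was 11.2 to 34.2 CPM against 4.63 to 8.65 (log2 1.67 ± 0.38). The falls included BCL6, S1PR1, NOTCH2 and DTX1, none of which passed in the single fit (adjusted p = 0.223, 0.408, 0.403 and 0.589), where 1 of the list fell and ITGAX did not pass either (0.265). S1PR1, the receptor for exit into blood, was 226 to 319 CPM against 429 to 534 (log2 -0.89 ± 0.10, adjusted p = 0.00022), and NOTCH2 and its target DTX1, which mark marginal zone cells, fell by 0.60 and 0.63. In the partner tumors of mice 1610, 1615 and 1611 S1PR2 was 65.0, 47.9 and 20.3 CPM, each below the chosen tumor of its mouse. EAF2, a gene of germinal center and plasma cells listed among plasma cell genes and so given with no test, was 91.5 CPM in spleen tumor 1615 and 30.0 to 35.7 in the other 3, against 5.65 to 6.75.

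**Figure D3:**
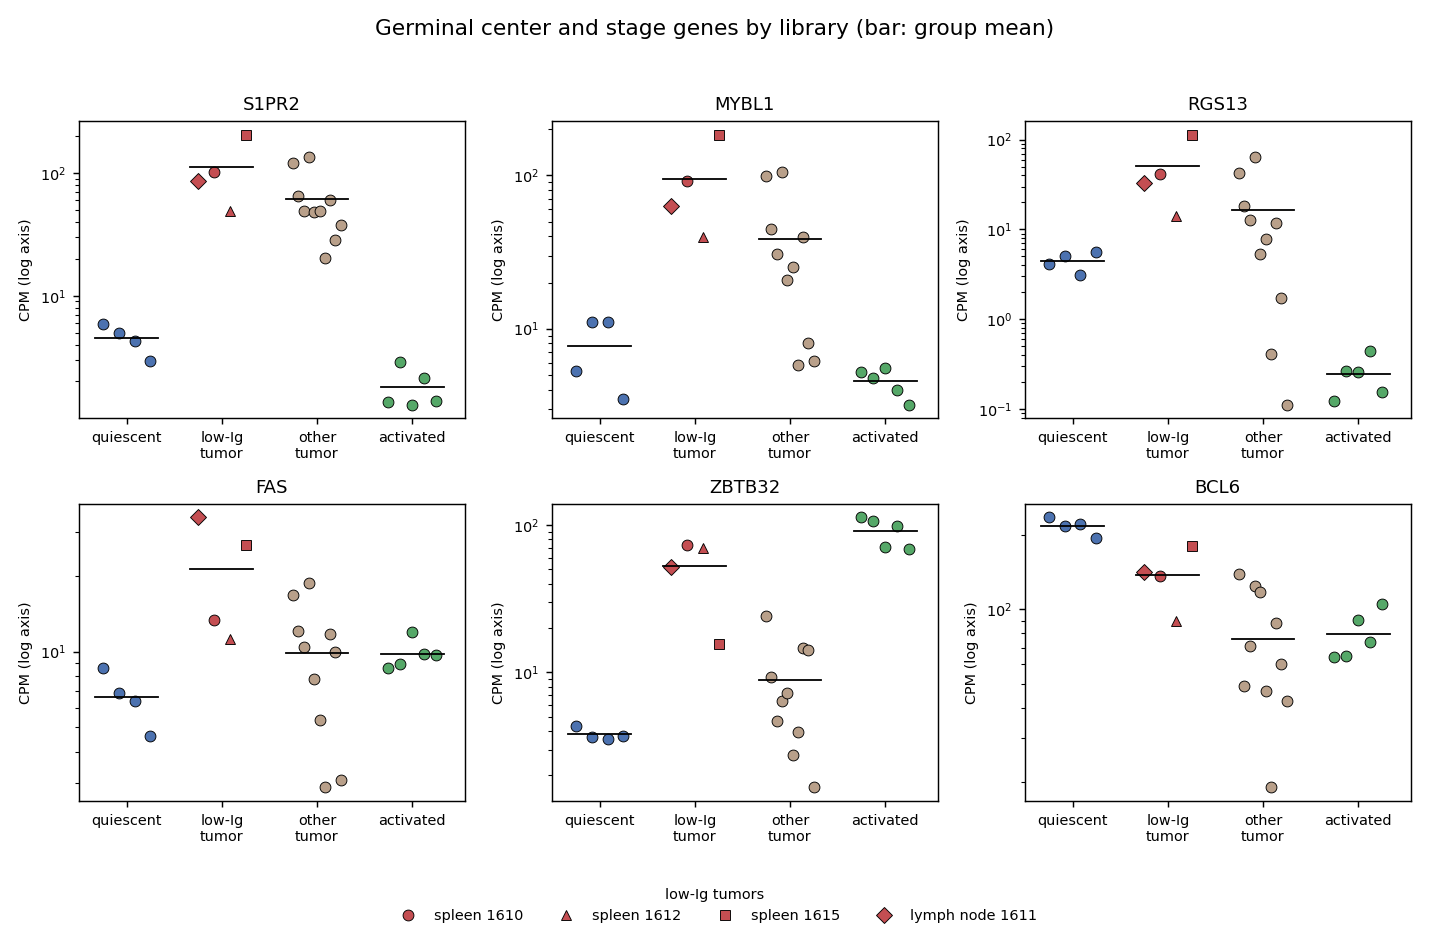
CPM on log axes of S1PR2, MYBL1, RGS13, FAS, ZBTB32 and BCL6, 1 point per library in the same 4 groups, with bars at group means. The 4 chosen tumors lie above all quiescent libraries for the first 5 genes and below them for BCL6, with spleen tumor 1615 highest for S1PR2, MYBL1 and RGS13 and lowest for ZBTB32.

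Genes through which a resting B cell senses antigen and help were lower, as were the B cell identity genes. Of 23 B cell receptor signaling genes, 18 fell and 0 rose, with a median log2 change of -0.42, and with all 8 mice 20 fell. The list shares members such as CD79A with the B cell identity genes, which follow the share that chose the tumors. These members were not removed, so the count is partly tied to that choice. With all libraries in 1 fit 2 of the 23 fell, at a median of -0.43, and RASGRP3 and PRKCB were not called (adjusted p = 0.0985 and 0.41). RASGRP3, which links the receptor to Ras, was 244 to 320 CPM against 428 to 506 (log2 -0.77 ± 0.10, adjusted p = 0.000536), and PRKCB, a kinase on the path to NF-kB, was 196 to 291 against 376 to 415 (log2 -0.72 ± 0.10). Of 17 NF-kB genes, 11 fell and 0 rose, with a median of -0.37, and 11 lay below every quiescent library in all 4 tumors. The summed level of the list was unequal among the tumors. It was 4480 CPM in lymph node tumor 1611 and 2330 to 2660 in the spleen tumors, against 3540 to 3640. Without lymph node tumor 1611, 15 fell, at a median of -0.50. NFKB2 and REL, subunits of the factor, fell by 0.81 and 0.70. In the single fit 2 of the 17 fell, and NFKB2 and REL did not pass (adjusted p = 0.0923 and 0.317). CD74, the chaperone of MHC class II, is listed among B cell identity genes and so is given with no test. It was 8140 to 9940 CPM against 11100 to 12400. HLA-DRA, the listed ortholog name of a class II alpha chain, was 2500 to 2950 CPM against 2830 to 3200 and did not pass (adjusted p = 0.159). Of 15 class II pathway genes 5 fell and 2 rose (1 and 1 in the single fit). The median of these lists lay between -0.13 and -0.42, beside -0.52 for B cell identity.

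Among 24 genes of quiescence, 12 fell and 5 rose, with a median of -0.31. With all 8 mice 13 fell and 3 rose, in the single fit 5 fell and 2 rose, and without quiescent replicate 2 or 3 the rises were 3. YPEL3, a growth suppressor, was 80.9 to 111 CPM against 181 to 195 (log2 -0.95 ± 0.09, adjusted p = 0.000124). KLF3 and FOXO1, factors of resting B cells, fell by 0.73 and 0.59, and KLF2, which drives recirculation, by 0.56. FOXO1 and KLF2 did not pass in the single fit (adjusted p = 0.382 and 0.471). Among 21 homing and adhesion genes, 12 fell and 6 rose, with a median of -0.49. In the single fit 1 fell and 3 rose, and S1PR3 and CCR7, named below, did not pass (adjusted p = 0.23 and 0.452). CXCR5, the receptor for entry to the follicle, is a B cell identity gene and likewise given with no test. It was 297 to 432 CPM against 545 to 643. S1PR3, a receptor of marginal zone B cells, fell by 1.20 and CCR7, a receptor for T zone chemokines, by 0.71. CXCR4, which leads cells to bone marrow and the germinal center dark zone, was 227 to 354 CPM against 223 to 290 and did not pass (adjusted p = 0.208, but 0.0446 without spleen tumor 1615). ITGB1, the integrin beta-1 chain, rose from 60.9 to 75.2 CPM to 159 to 249 (log2 1.69 ± 0.14, adjusted p = 8.77e-05). ICOSLG, a costimulatory ligand, was 250 to 308 CPM against 632 to 721 (log2 -1.27 ± 0.08, adjusted p = 4.33e-05).

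**Figure D4:**
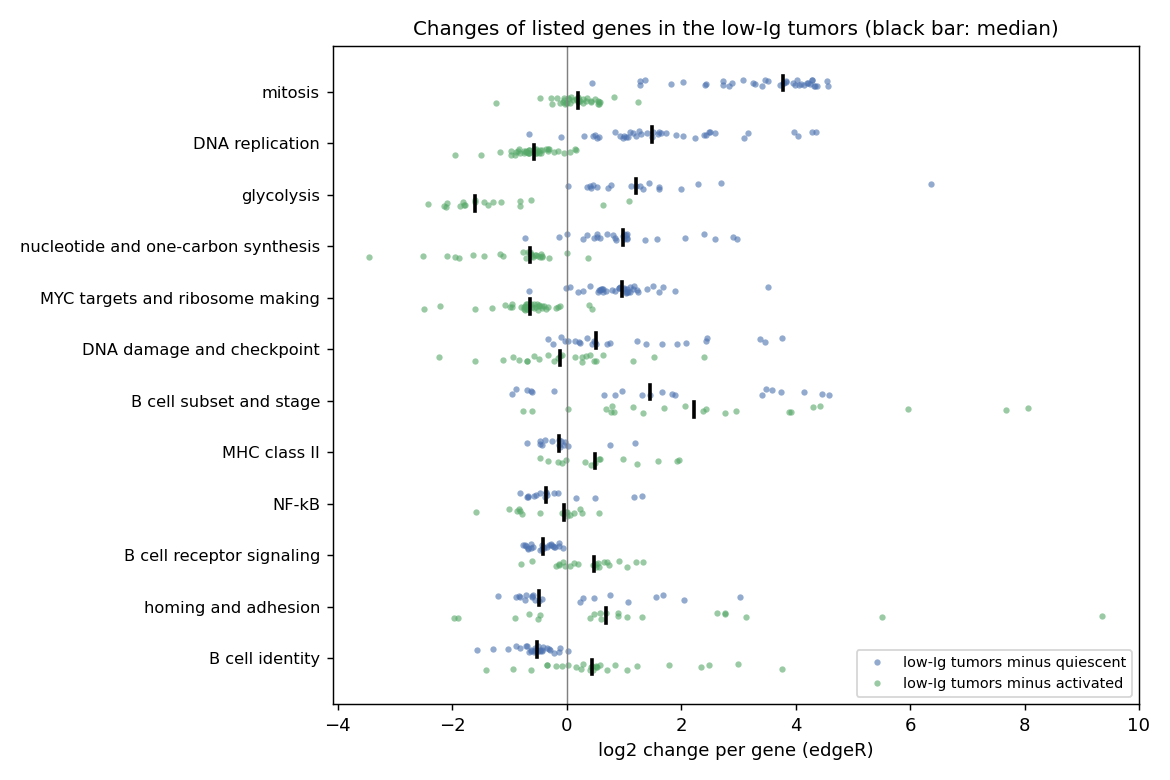
Log2 change per gene for 12 lists, 1 point per gene, blue for the chosen tumors against quiescent cells and green for the chosen tumors against activated cells, which share the tumors; black bars are medians. Mitosis stands at a median of 3.78 against quiescent and 0.19 against activated cells, while B cell receptor signaling stands at -0.42 and 0.47.

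Of 13 BCL2 family genes tested, 6 rose and 2 fell, with all 8 mice 7 rose and 3 fell, and in the single fit 3 rose and 1 fell. BMF, a pro-death member, was 30.8 to 37.4 CPM in 3 tumors and 14.9 in spleen tumor 1615, against 93.2 to 101 (log2 -1.76 ± 0.24, adjusted p = 0.000556). BBC3, the pro-death member PUMA, was 11.3 to 18.0 CPM against 3.09 to 4.05 (log2 2.09 ± 0.20, adjusted p = 0.000114). BCL2, which keeps resting B cells alive, was 97.1 to 125 CPM against 154 to 168 (log2 -0.57 ± 0.08, adjusted p = 0.407 in the single fit). Of 25 DNA damage and checkpoint genes, 17 rose and 1 fell, ATR, with a median of 0.51, and with all 8 mice 19 of 26 rose and 3 fell. In the single fit 10 rose and 0 fell (ATR adjusted p = 0.127). CHEK1, a checkpoint kinase of S phase, rose by 3.46. PHLDA3, a gene induced by DNA damage, was 1.03 to 2.87 CPM against 0.0643 to 0.226 and was tested only through the tumors, so 16 rises remain without it. MDM2, a ubiquitin ligase of the same response, was 99.2 to 153 CPM against 111 to 124 and did not pass (adjusted p = 0.881).

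IL6 was too low to test against quiescent cells, at 0.168 to 0.977 CPM in the tumors and 0 to 0.0853 in quiescent libraries, while activated libraries held 52.9 to 77.9. IL6R, its receptor, was 55.8 CPM in lymph node tumor 1611, 50.5 in spleen tumor 1612, 28.0 in spleen tumor 1610 and 16.9 in spleen tumor 1615, which overlapped the quiescent range of 22.7 to 30.6 (adjusted p = 0.272). Without spleen tumor 1615 it passed (log2 0.72, adjusted p = 0.0366). Of 21 genes of the IL6, JAK and STAT list, 4 rose and 4 fell, neither above the share over all genes tested (26.0% and 26.5%). With all 8 mice, 8 of 22 rose and 4 fell. Without spleen tumor 1615, 7 rose, and in the single fit 3 rose and 2 fell. SOCS3, the feedback inhibitor induced by STAT3, was 246 CPM in lymph node tumor 1611, 68.6 in spleen tumor 1612, 58.6 in spleen tumor 1610 and 47.4 in spleen tumor 1615, against 7.46 to 13.8. All 4 tumors lay above the quiescent libraries (log2 3.19 ± 0.56, adjusted p = 0.0019), also without lymph node tumor 1611 (log2 2.35, adjusted p = 8e-05). SOCS2 and SOCS1 rose by 2.39 and 1.50, and PIAS3, an inhibitor of STAT3, was 31.6 to 32.6 CPM against 61.1 to 74.4 (log2 -1.03 ± 0.08, adjusted p = 5.94e-05). STAT3 was 275 to 360 CPM against 254 to 310 and did not pass (adjusted p = 0.318), but did with quantile normalization (log2 0.26, adjusted p = 0.0257).

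Several lists of markers of other cells were also higher, unequally among the tumors. The 18 macrophage and monocyte markers summed to 2600 CPM in lymph node tumor 1611, 2220 in spleen tumor 1612, 553 in spleen tumor 1615 and 496 in spleen tumor 1610, against 59.6 to 401 in quiescent cells, and 0 of the 18 were at 0 throughout the tumors. Of the 18, 16 rose and 0 fell (13 of 17 without lymph node tumor 1611, and 15 without MARCO, which was tested only through the tumors). CSF1R, the macrophage growth factor receptor, was 269, 211, 44.0 and 29.4 CPM in spleen tumor 1612, lymph node tumor 1611, spleen tumor 1610 and spleen tumor 1615, against 4.81 to 31.8. The 11 neutrophil markers summed to 1630 CPM in lymph node tumor 1611 and 17.0 to 117 in the spleen tumors, against 9.50 to 11.6. The 13 erythroid markers summed to 1800 CPM in spleen tumor 1612 and 341 to 454 in the other 3, against 110 to 134. Activated libraries summed to 303 to 332 CPM, although 9 of 11 erythroid markers tested against them were under 1 CPM in each. Against quiescent cells, 11 of 12 erythroid markers tested rose and 0 fell, or 5 rose without the 6 tested only through the tumors. The part of red cells in these sums was not tested. The 19 T cell markers did not stand apart, at 220 to 325 CPM against 291 to 311, and CD3E, a chain of the T cell receptor, was at most 2.38 CPM. Lymph node tumor 1611 also held the most mast cell and basophil markers, 272 against at most 12.3 CPM in the spleen tumors, and stromal markers, 362 against at most 110. Quiescent libraries, at 3.11 to 7.14 and 21.0 to 112 CPM, overlapped the spleen tumors in each of these lists. The part of these cells in the gene changes above was not tested.

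Of 20 interferon response genes tested, 14 rose and 0 fell, with a median of 1.99. With all 8 mice 16 of 21 rose and 1 fell, while in the single fit 3 rose and RSAD2 did not pass (adjusted p = 0.0551). RSAD2, an antiviral enzyme, was 89.9 CPM in lymph node tumor 1611, 30.2 in spleen tumor 1612, 11.4 in spleen tumor 1615 and 5.49 in spleen tumor 1610, against 0.678 to 5.14 (log2 4.07, adjusted p = 0.00938). Without lymph node tumor 1611 the change was 2.96 (adjusted p = 0.0118), and without quiescent replicate 3 it was 5.11 (adjusted p = 0.00882). The tumors stood in the same order as in their macrophage sums, whose part in this list was not tested. IFI44, an interferon-induced gene, was 117, 65.4, 22.1 and 20.4 CPM in that order of tumors, against 2.54 to 6.49 (log2 3.67 ± 0.63, adjusted p = 0.00166, and 3.04 without lymph node tumor 1611). Without lymph node tumor 1611, 11 of 20 genes of the list rose and 1 fell, at a median of 0.85, and without quiescent replicate 1 or 3 the count was 9.

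**Figure D5:**
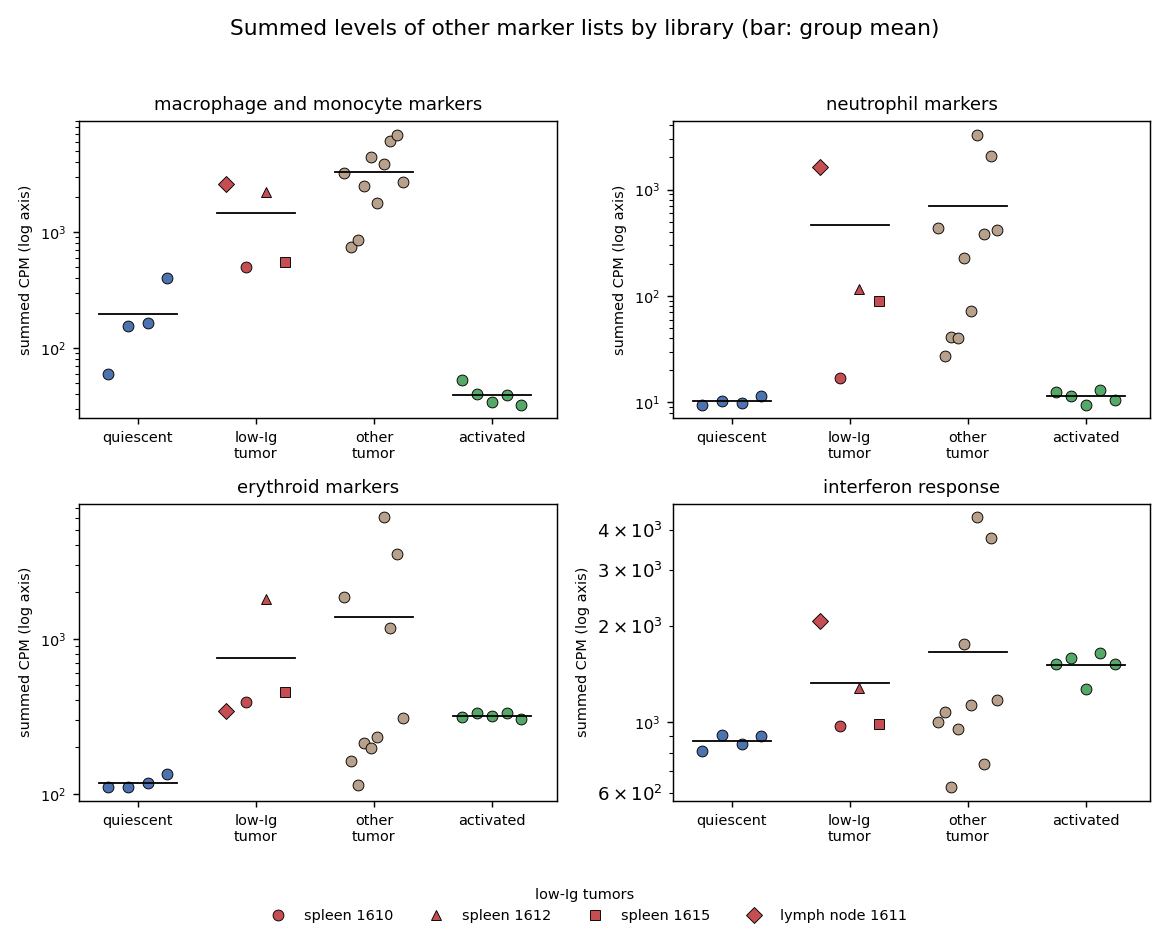
Summed CPM on log axes of macrophage and monocyte, neutrophil, erythroid and interferon response genes, 1 point per library in the same 4 groups, with bars at group means. Lymph node tumor 1611 is the highest chosen tumor for macrophage, neutrophil and interferon genes, and spleen tumor 1612 for erythroid genes.

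The largest rise over all genes with at least 10 CPM in both groups was that of MID1, a microtubule-associated ubiquitin ligase. It was 729 CPM in spleen tumor 1610, 617 in spleen tumor 1612, 576 in lymph node tumor 1611 and 461 in spleen tumor 1615, against 14.2 to 20.3 in quiescent and 14.0 to 18.1 in activated libraries. The groups did not overlap (log2 5.09 ± 0.16, adjusted p = 2.9e-06), and the other tumors, at 200 to 1220 CPM, were high as well. SLPI, a secreted protease inhibitor, rose by 4.56 ± 0.63 but varied from 84.3 CPM in spleen tumor 1610 to 607 in spleen tumor 1612, and the other tumors held 628 to 43500. The further rises of this kind were MKI67, HMOX1, TOP2A, SOCS3, UCK2 and SDC3. HMOX1, the heme oxygenase of macrophages, is itself a member of the macrophage list, so its level is part of the macrophage sums. It was 320 and 204 CPM in the tumors with the highest macrophage sums and 51.5 and 34.2 in the others, against 4.69 to 26.1.

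The largest fall was that of L1CAM, a neural adhesion molecule. It was 28.7 CPM in lymph node tumor 1611, 20.0 in spleen tumor 1612, 18.4 in spleen tumor 1610 and 7.85 in spleen tumor 1615, against 94.6 to 137 (log2 -2.67 ± 0.33, adjusted p = 0.000369). Activated libraries, at 17.0 to 26.1 CPM, overlapped the tumors. PTPN14, a tyrosine phosphatase, was 31.5 to 53.5 CPM against 153 to 187 (log2 -2.04 ± 0.15, adjusted p = 5.23e-05), and activated libraries again held a like level of 35.3 to 44.2. SPNS2, the sphingosine-1-phosphate exporter, was 13.0 to 22.3 CPM against 60.7 to 85.0 (log2 -2.00 ± 0.18, adjusted p = 0.0978 in the single fit). SFI1, a centrosome protein, was 265 to 329 CPM against 883 to 980 in quiescent and 744 to 852 in activated libraries, and fell against both (log2 -1.72 ± 0.07, adjusted p = 1.62e-05, and -1.43 ± 0.07, adjusted p = 3.35e-07). STAT4, a cytokine signal carrier, also fell against both, by 1.67 and 1.37. RFTN2 and MAPK12 completed these falls with BMF, at -1.84 and -1.74.

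Of the 21 genes under 1 CPM in each quiescent library and at a mean of at least 10 CPM in the tumors, the 8 largest rises were LCN2, S100A8, F13A1, SLC16A3, LTF, KEL, MARCO and CLDN4. LCN2, lipocalin 2 of neutrophils, was 874 CPM in lymph node tumor 1611 and 1.20 to 12.8 in the spleen tumors. S100A8, a neutrophil calcium-binding protein, was 358 CPM there and 3.15 to 26.9 in the spleen tumors. KEL, a blood group antigen of red cells, was 40.2 CPM in spleen tumor 1612 and 2.47 to 5.33 elsewhere, and CLDN4, a tight junction protein, was 28.5 there and 3.87 to 4.33 elsewhere. Each of these 4 genes was thus mostly from 1 tumor. All 8 were tested only because the tumors were high, so their calls support nothing. With limma-voom and quality weights LCN2, S100A8, F13A1 and SLC16A3 no longer passed (adjusted p = 0.166, 0.113, 0.0867 and 0.0556), and with quantile normalization MARCO did not (adjusted p = 0.0669). With lymph node tumor 1611 left out, genes this low in quiescent cells no longer reached the minimum of 1 CPM in 4 libraries and were not tested.

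Set against LPS-activated cells, whose libraries were not used to choose the tumors, 6095 of 10336 genes passed (59.0%), 3250 higher (31.4%) and 2845 lower (27.5%). This comparison shares its tumors with the first. Of 39 mitosis genes, 3 were higher and 1 lower, with a median of 0.19, where 38 had passed against quiescent cells. These counts rest on single libraries: 9 were higher without lymph node tumor 1611, 5 without spleen tumor 1612, and 11 were lower without spleen tumor 1615 (median -0.15). With all 8 mice 8 were higher and 2 lower. MKI67 was 287 to 402 CPM in activated libraries, which overlapped the tumors (log2 0.50 ± 0.20, adjusted p = 0.0524), and it passed without lymph node tumor 1611 (0.68, adjusted p = 0.00489) or without spleen tumor 1610 (0.61, adjusted p = 0.0378). Growth genes were lower in the tumors than in activated cells. Of 38 MYC targets and ribosome-making genes 33 were lower and 1 higher (median -0.64), of 27 nucleotide and one-carbon genes 24 were lower and 1 higher (median -0.64), of 19 glycolysis genes 15 were lower and 0 higher (median -1.60), and of 39 replication genes 25 were lower and 0 higher (median -0.57), though 8 were lower in the single fit. LDHA was 1410 to 2470 CPM in activated libraries, above every chosen tumor (log2 -1.61 ± 0.22, adjusted p = 0.000154), although MYC was higher in the tumors. CISH, a feedback inhibitor of STAT5 signaling, was 1.68 to 3.58 CPM in the tumors and 453 to 508 in activated libraries (log2 -7.41 ± 0.21, adjusted p = 8.89e-09).

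Resting and stage genes ran the other way. Of 24 quiescence genes 18 were higher and 1 lower in the tumors than in activated cells (median 1.00), and of 22 subset and stage genes 18 were higher and 0 lower (median 2.22), or 17 and 16 without members tested only through the tumors. S1PR2, MYBL1 and RGS13 exceeded activated cells by 5.97, 4.42 and 7.68 on the log2 scale, so these genes were high against both controls. RGS13 was under 1 CPM in each activated library and so was tested only through the tumors. ZBTB32 was 68.8 to 113 CPM in activated libraries and did not differ past the threshold (adjusted p = 0.106). CR2 was 710 to 1020 CPM in the tumors, between 103 to 113 in activated and 2130 to 2580 in quiescent libraries. Of 23 B cell receptor signaling genes, again with the B cell identity genes among them, 13 were higher and 2 lower (median 0.47). With all 8 mice the list turned, with 5 higher and 6 lower (median -0.14), and in the single fit 4 were higher and 1 lower. S1PR1 was 34.7 to 43.0 CPM in activated libraries, below every tumor (log2 2.77 ± 0.10, adjusted p = 3.95e-08).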

How the data were processed

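RNA was sequenced from B cell-enriched spleen and mesenteric lymph node tumors and from splenic control B cells. Per the submitters' processing notes, Trim Galore 0.4.0, DESeq2 and build GRCm39 were used. The authors deposited estimated counts per gene under human ortholog symbols, a unit judged from the values. They were made with an aligner and counter not given in the sources used here and stand as deposited. Entries with identical values were merged, which left 15881 profiles, and 48 immunoglobulin and 9 Y-linked profiles were left out of totals and tests. Estimated counts were rounded and tested with edgeR 4.0.16 (R 4.3.3) quasi-likelihood tests, TMM factors, genes at 1 CPM or more in at least 4 libraries, and Benjamini-Hochberg adjustment over all genes tested. The test was tried on simulated counts. Printed CPM use TMM factors over all 23 libraries. The SE after ± is approximate: the size of the log2 change over the square root of the F statistic, least reliable for genes near 0 in 1 group. Alternatives were RLE, upper quartile and quantile normalization, no filter or 10 CPM, DESeq2 1.42.0, limma 3.58.1 with pseudocounts of 1 and 5, limma-voom with quality weights, a test against 2-fold, immunoglobulin and Y-linked entries kept, all libraries in 1 fit, all 8 tumor mice, and each library left out.

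The members and lists were chosen with earlier results of these data known. Genes were named as MYC, MKI67, PAX5, IL6 and IL6R, up to 3 largest rises and falls per list, and the 8 largest rises and falls over all genes past the threshold with no overlap and a mean of at least 10 CPM in both groups, and the 8 largest rises from under 1 CPM in each quiescent library to a mean of at least 10 CPM; profiles with several names were not named. Some genes under this rule are not reported here. Further genes were chosen after their values were seen. Promoters came from RefSeq on GRCm38.p6, not the authors' build, so no other coordinates are given.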

Additional observations from a re-analysis of the deposited data

Results flagged for a closer look

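Within groups of 4 or 5 libraries, 41 of 378 sets of gene values had 1 library far from the rest by Dixon's test at the 95% level; chance gives about 1 in 20. Lymph node tumor 1611 stood above the 3 spleen tumors in CPM for CDKN1A (95.9), HK2 (94.9), SLC16A3 (139), SOCS3 (246), BATF (54.8), LCN2 (874), S100A8 (358), F13A1 (164) and MARCO (71.7). Spleen tumor 1615 stood high for CDC20 (124), MCM10 (67.4), MCM6 (315), RFC3 (56.9), CCNB2 (89.4), EZH2 (125), EAF2 (91.5) and SOCS1 (25.0), and low for BHLHE41 (24.2) and SPNS2 (13.0). Spleen tumor 1612 stood high for KEL (40.2) and CLDN4 (28.5) and low for MAX (138). Spleen tumor 1610 stood high for MS4A1 (1880).

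Among the quiescent libraries, number 1 stood apart for CCNB1 (2.26), ASNS (4.69), REL (408) and PIAS3 (74.4), number 2 for CDKN1A (4.14) and HLA-DRA (3200), number 3 for MKI67 (23.7) and RSAD2 (5.14), and number 4 for KLF3 (207), ATR (127) and HMOX1 (26.1). Among the activated libraries, number 1 stood apart for HK2 (120), number 2 for S1PR1 (34.7) and CD3E (0.264), number 3 for REL (484) and SPNS2 (2.17), and number 4 for F13A1 (0.658) and MARCO (0.439).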

How the results depend on the processing

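Against quiescent cells 4468 to 5215 genes passed when 1 library was left out, and against activated cells 5297 to 6086. When only changes above 2-fold were tested, 530 and 1239 genes passed, 91.9% and 78.4% of them higher, and with all libraries in 1 fit 2490 (63.5% higher) and 3491 passed. Lists gave, in the 2-fold test, 17 replication, 6 MYC target, 6 nucleotide and one-carbon, 7 subset and stage, 3 interferon and 3 macrophage genes higher and 0 B cell receptor genes lower, and in the single fit 3 interferon genes higher and 2 B cell receptor genes lower. Interferon genes higher numbered 8 with quantile normalization, 8 with a minimum of 10 CPM, 9 with limma at a pseudocount of 5, and 9 to 16 with 1 library left out; macrophage markers numbered 10 at the stricter minimum, where only 11 were tested, and 11 to 16 with 1 library left out. Ranges with 1 library left out were 38 to 39 for mitosis, 31 to 37 for replication, 33 to 35 for MYC targets, 23 to 24 for nucleotide and one-carbon, 10 to 14 for subset and stage, and 17 to 18 for B cell receptor genes. The cause of these shifts was not tested.

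Of the values of named genes under all alternatives, 89 lost and 26 gained a call against quiescent cells and 0 changed sign with a call; against activated cells 101 lost, 48 gained and 9 changed sign. The sign changes were CDKN1A (-1.51) and SOCS3 (-0.75) without lymph node tumor 1611 (-1.51 to 0.91 and -0.75 to 0.37 with 1 library left out), PHLDA3 (-0.73) with quantile normalization, and SRM (0.21), UCK2 (0.20), HLA-DRA (-0.22), FOXO1 (-0.19), CCR7 (-0.23) and EGR3 (-0.11) with all 8 mice. Taking only the chosen spleen tumors is the same as leaving out lymph node tumor 1611. The same 4 tumors were chosen from constant region genes only. No paired analysis was possible because tumor labels carry mouse numbers and control labels run from 1, so the groups share no number. The number of libraries limits the precision, and depth limits genes near 1 CPM.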

Other observations

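Chromatin genes of the polycomb list were split, 8 higher and 8 lower of 29 tested against quiescent cells, at a median log2 change of -0.12. Higher genes numbered 5 without quiescent replicate 2 or 3, and 5 were higher and 14 lower with all 8 mice, 4 and 2 in the single fit. EZH2, the histone methyltransferase of polycomb repressive complex 2 that germinal center B cells use, was 125 CPM in spleen tumor 1615 and 59.9 to 67.3 in the other 3, against 17.9 to 25.7 (log2 1.78 ± 0.25, adjusted p = 0.000683). CBX2 rose by 1.74 while CBX7, another reader subunit of the partner complex, fell by 0.80 (70.8 to 102 CPM against 123 to 186, adjusted p = 0.0978 in the single fit). Of 18 B cell activation genes, 4 rose and 4 fell, which is likewise close to the shares of all genes. There were 7 falls without lymph node tumor 1611 and 2 rises with all 8 mice, and 1 rose and 0 fell in the single fit. BATF, a factor needed for class switching, was 54.8 CPM in lymph node tumor 1611 and 18.8 to 24.5 in the spleen tumors, against 9.58 to 12.0 (log2 1.45 ± 0.34, adjusted p = 0.00681, 0.0556 with all 8 tumor mice and 0.0933 in the single fit). EGR3, an early response factor, fell by 0.81 (69.7 to 101 CPM against 131 to 168, adjusted p = 0.407 in the single fit). The 11 dendritic cell markers summed to 113 to 221 CPM in the chosen tumors, above all quiescent libraries at 48.3 to 64.5.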
